A study of Mus musculus with 5 samples.

Results

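Neutrophil genes and the neutrophil-attracting chemokine gene Cxcl5 were followed in whole lung of 5 mouse strains. The 10 genes were S100a8, S100a9, Ltf, Lcn2, Ngp, Camp, Cxcr2, Csf3r, Retnlg and Cxcl5, and their members on the array were all probe sets whose only gene symbol in the platform annotation was one of these. The rule found 9 probe sets of 45101, 1 for each of 9 genes, and Retnlg has no value here because the annotation used lists no probe set with that single symbol. Of the 18194 genes with a probe set of their own symbol, 11500 reached the expression floor, an intensity of 64 in at least 1 array, and 6 of the 9 genes were among them. Genes with several probe sets were represented by the brightest.

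The study measured naive female mice that had received no elastase, the treatment behind the emphysema model in its title, with 1 array per strain and RNA mixed from 3 lungs for each array. The strains were 4B(-/-), lacking PDE4B, its wild-type line 4B(+/+), 4D(-/-), lacking PDE4D, its wild-type line 4D(+/+), and the parental strain C57, which is C57BL/6J. PDE4B and PDE4D are phosphodiesterases that degrade cyclic AMP. All 4 lines came from a C57BL/6 × 129/Ola background and had been backcrossed to C57BL/6J for 11 generations or more, per the labels. The labels describe neither the deleted parts nor whether the wild-type lines were littermates of the knockouts. Since each strain has a single array, none of the differences below could be checked against replicates, and no p-value is given. The 5 arrays had nearly equal median intensities, between 45.4 and 46.6.

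Neutrophils are short-lived phagocytes of the blood that kill microbes with oxidants and with proteins stored in granules. They leave the marrow under the growth factor G-CSF and enter tissue toward CXC chemokines read by the receptor CXCR2, and the lung capillaries hold a large resident pool. In mouse lung the epithelium makes CXCL5, and production of CXCL5 by airway club cells is known to follow the circadian clock. Several products used as neutrophil markers have other sources: airway and glandular epithelium secretes lactoferrin (Ltf) and lipocalin-2 (Lcn2), and monocytes and squamous epithelium can make S100A8 and S100A9.

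The stretches of 250 bases before the annotated start of S100a8 and S100a9, which had nearly the same profile over the arrays, and of Ltf and Lcn2, which ran in opposite directions in the PDE4D lines, are shown to let the 4 promoters be compared. They are from RefSeq on GRCm38.p6, written 5′ to 3′ on the gene's strand, with matches to TTGCNNAA, a core of C/EBP sites, on either strand in capitals. C/EBP factors drive granule genes as neutrophils mature.
S100a8, chr3:90668821-90669070, plus strand: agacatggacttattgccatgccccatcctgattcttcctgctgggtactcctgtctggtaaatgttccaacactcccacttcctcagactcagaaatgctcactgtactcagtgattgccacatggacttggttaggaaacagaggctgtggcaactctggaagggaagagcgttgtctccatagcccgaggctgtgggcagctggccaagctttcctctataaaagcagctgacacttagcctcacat
S100a9, chr3:90695722-90695971, minus strand: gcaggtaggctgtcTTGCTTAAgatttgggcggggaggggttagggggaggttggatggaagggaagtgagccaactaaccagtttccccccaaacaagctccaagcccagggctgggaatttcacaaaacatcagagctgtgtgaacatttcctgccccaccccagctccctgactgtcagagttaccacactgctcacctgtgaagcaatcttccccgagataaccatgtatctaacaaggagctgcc
Ltf, chr9:111019042-111019291, plus strand: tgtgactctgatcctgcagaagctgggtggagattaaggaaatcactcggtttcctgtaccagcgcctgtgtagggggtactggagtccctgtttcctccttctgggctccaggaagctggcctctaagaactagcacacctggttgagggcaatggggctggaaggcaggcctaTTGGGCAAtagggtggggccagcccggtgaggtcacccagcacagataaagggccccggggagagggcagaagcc
Lcn2, chr2:32387740-32387989, minus strand: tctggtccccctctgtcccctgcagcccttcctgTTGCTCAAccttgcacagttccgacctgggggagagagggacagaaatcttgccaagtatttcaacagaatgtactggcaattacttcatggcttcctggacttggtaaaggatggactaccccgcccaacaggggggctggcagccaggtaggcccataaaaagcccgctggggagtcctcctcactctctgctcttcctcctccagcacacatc
The S100a9 stretch held 1 match, 236 bases before the start, the Ltf stretch 1 at 75 bases and the Lcn2 stretch 1 at 216 bases, and the S100a8 stretch held none. This stretch was at hand for 9 of the 10 genes, all but Cxcl5, whose promoter was therefore not searched. Of the 9, 5, S100a9, Ltf, Lcn2, Ngp and Retnlg, held the motif, as did 9.56% of 32851 promoter stretches of the same length. The NF-kappaB motif searched was GGGRNWYYCC, where R is A or G, W is A or T, Y is C or T and N is any base. It was found in 0 of the 9 and in 3.90% of all stretches. For 9 stretches 0 is near that share. A match of letters is a description and not a binding site.

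The listed genes did not vary as 1 group. S100a8, S100a9 and Ltf were brightest in 4D(+/+), Cxcl5 was brightest in 4B(+/+), Lcn2 was brightest in 4D(-/-), Csf3r hardly differed between arrays, and Ngp, Camp and Cxcr2 stayed under the floor in all 5. The label of neutrophil genes therefore holds for what the genes are known for and not for a shared profile in these lungs. Their levels also differed widely. The mean log2 level exceeded that of 91.4% of the genes over the floor for S100a8, 80.3% for S100a9 and 97.9% for Ltf. The lowest and highest arrays differed by 1.22-fold for the median gene over the floor and by 1.81-fold at the 95th percentile of those genes. In whole-tissue RNA fewer cells of a type and less RNA per cell cannot be told apart.

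**Figure D1:**
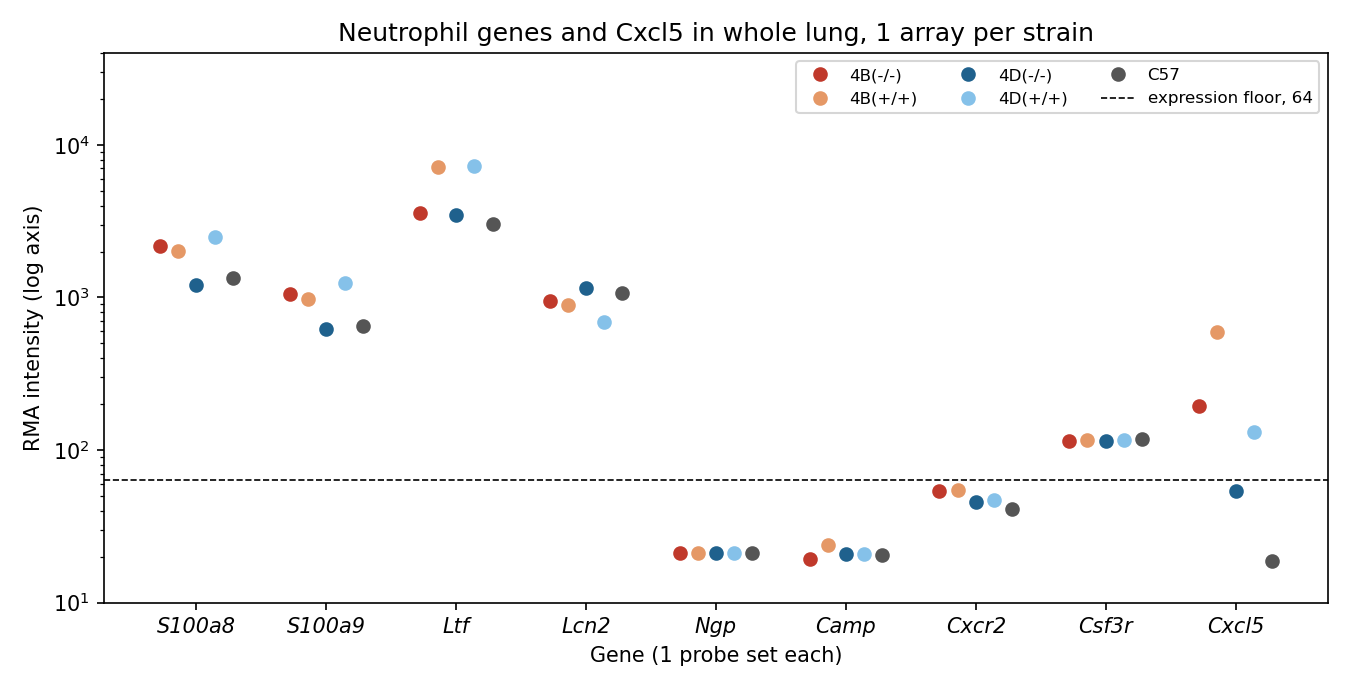
RMA intensity on a log axis for the 9 genes with a probe set, 1 point per array, coloured by strain; the dashed line is the floor of 64. Ngp, Camp and Cxcr2 lie under the floor in every array, Csf3r lies between 114 and 117, and Cxcl5 reaches 593 in 4B(+/+) and lies under the floor in 4D(-/-) and C57.

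S100a8 and S100a9 encode the 2 subunits of calprotectin, a calcium- and zinc-binding protein that fills the neutrophil cytosol and acts as an alarm signal when released. S100a8 (probe set 1419394_s_at) read 2161 in 4B(-/-), 2022 in 4B(+/+), 1213 in 4D(-/-), 2508 in 4D(+/+) and 1343 in C57. S100a9 (1448756_at) read 1050 in 4B(-/-), 970 in 4B(+/+), 622 in 4D(-/-), 1252 in 4D(+/+) and 646 in C57. The 5 arrays stood in the same order for both genes, with 4D(+/+) and the 2 PDE4B lines high and C57 and 4D(-/-) low. In 4D(-/-) against 4D(+/+), S100a8 was 2.07-fold lower and S100a9 2.01-fold lower. In 4B(-/-) against 4B(+/+), S100a8 was 1.07-fold higher and S100a9 1.08-fold higher, inside the spread of the 3 wild-type arrays, which was 1.87-fold for S100a8 and 1.94-fold for S100a9. The low 4D(-/-) values were close to C57, at 1.11-fold lower for S100a8 and 1.04-fold lower for S100a9.

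Among 1585 other genes over the floor whose lowest and highest arrays differed by at least 1.5-fold, S100a9 had the profile nearest to S100a8, with a root mean square difference of 0.04 on the log2 scale over the 5 arrays after each gene was centred. The next were Apoc1, an apolipoprotein (0.07), Uqcrq, a subunit of respiratory complex III (0.08), Hebp2, a haem-binding protein (0.08), and Mcrip2 (0.08). Uqcrq read 2320 in 4B(-/-), 1973 in 4B(+/+), 1368 in 4D(-/-), 2818 in 4D(+/+) and 1445 in C57. The profile was therefore shared with genes that are not neutrophil markers. In the same centred measure Ltf stood at rank 669, Lcn2 at 1304 and Cxcl5 at 1570.

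**Figure D2:**
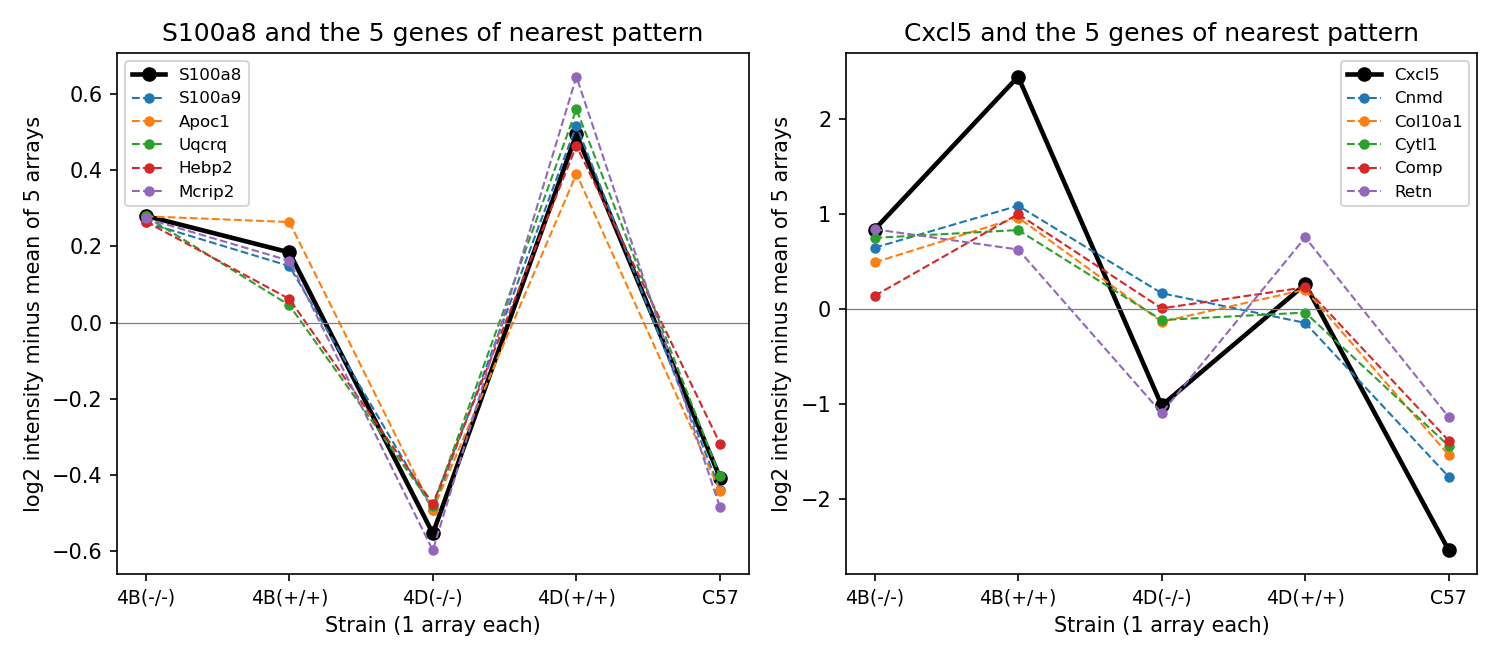
log2 intensity minus the gene's mean over the 5 arrays, by strain, for S100a8 (left) and Cxcl5 (right) as black lines, each with the 5 genes of nearest profile as dashed lines. S100a9 lies nearest to S100a8, at 0.04, while the nearest gene to Cxcl5, Cnmd, is 0.90 away.

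Ltf encodes lactoferrin, an iron-binding protein of the specific granules and of mucosal secretions. Ltf (1450009_at) read 3598 in 4B(-/-), 7136 in 4B(+/+), 3471 in 4D(-/-), 7272 in 4D(+/+) and 3038 in C57. Both wild-type lines were high, and both knockouts and C57 were low and within 1.18-fold of each other. Ltf was 1.98-fold lower in 4B(-/-) than in 4B(+/+) and 2.10-fold lower in 4D(-/-) than in 4D(+/+). The excess over C57 was 2.35-fold in 4B(+/+) and 2.39-fold in 4D(+/+), and neither knockout lay below C57. S100a8 and S100a9 did not share this profile in the PDE4B lines, where their differences were 1.07-fold and 1.08-fold.

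Lcn2 encodes lipocalin-2, which binds bacterial siderophores and withholds iron. Lcn2 (1427747_a_at) read 944 in 4B(-/-), 892 in 4B(+/+), 1161 in 4D(-/-), 692 in 4D(+/+) and 1067 in C57. The lowest array was the one in which S100a8, S100a9 and Ltf were highest. Lcn2 was 1.68-fold higher in 4D(-/-) than in 4D(+/+), 1.06-fold higher in 4B(-/-) than in 4B(+/+), and 1.54-fold lower in 4D(+/+) than in C57.

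The remaining granule proteins were near background. Ngp, the neutrophilic granule protein (1418722_at), read 21.1 in 4D(+/+) and 21.2 in the other 4 arrays. Camp, the cathelicidin antimicrobial peptide (1419691_at), read 19.4 in 4B(-/-), 23.7 in 4B(+/+), 20.7 in both 4D(-/-) and 4D(+/+), and 20.6 in C57. These values are under the floor of 64, so their order carries no information.

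Of the receptors, Cxcr2, which binds CXCL5 and related chemokines (1421734_at), read 53.8 in 4B(-/-), 54.4 in 4B(+/+), 45.4 in 4D(-/-), 46.8 in 4D(+/+) and 40.8 in C57, all under the floor. Csf3r, the G-CSF receptor (1418806_at), read 114 in 4B(-/-), 116 in 4B(+/+), 115 in 4D(-/-), 116 in 4D(+/+) and 117 in C57. Its lowest and highest arrays differed by 1.03-fold, a smaller range than in all but 2.43% of the genes over the floor. Csf3r was the only neutrophil receptor of the list over the floor, and its mean log2 level exceeded that of 18.7% of those genes. Whether a probe set this low and flat follows neutrophil content was not tested.

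Cxcl5 encodes the ligand of CXCR2 that draws neutrophils into inflamed lung. Cxcl5 (1419728_at) read 194 in 4B(-/-), 593 in 4B(+/+), 53.8 in 4D(-/-), 130 in 4D(+/+) and 18.7 in C57. Both knockouts read lower than the wild-type line of their own name, and C57 and 4D(-/-) were both under the floor. Cxcl5 was 3.05-fold lower in 4B(-/-) than in 4B(+/+), with both above the floor. It was at least 2.04-fold lower in 4D(-/-) than in 4D(+/+), because the 4D(-/-) value was under the floor and the bound is taken against 64. Against C57, set at the floor in the same way, it was at least 3.04-fold higher in 4B(-/-), at least 9.26-fold higher in 4B(+/+) and at least 2.04-fold higher in 4D(+/+), and 4D(-/-) and C57 were both under the floor. The wild-type arrays alone spread over at least 9.26-fold, wider than the 3.05-fold difference within the PDE4B lines.

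**Figure D3:**
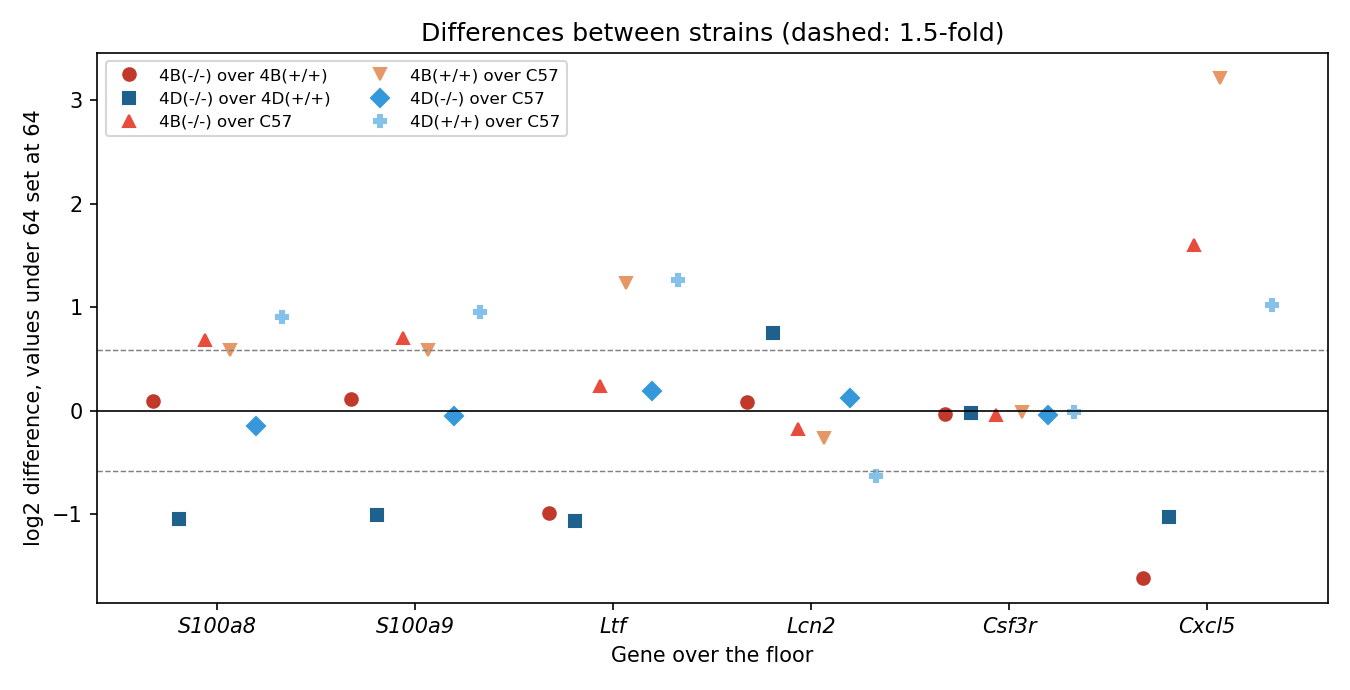
log2 difference between 2 arrays for the 6 genes over the floor, 1 marker per comparison, with values under the floor set at 64 and dashed lines at 1.5-fold; Cxcl5 has no marker for 4D(-/-) over C57, both under the floor. Cxcl5 and Ltf lie below 0 in both knockout comparisons, Csf3r lies near 0 in all 6, and Cxcl5 reaches 3.21 in 4B(+/+) over C57, a lower bound.

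The genes past 1.5-fold were then counted against the share of all 11500 genes past the same fold in the same direction, as a description with no test. The genes were listed with earlier results of these data known, and Cxcl5 entered the count through the 3 arrays in which it was over the floor, so the counts and medians support nothing by themselves. In 4B(-/-) over 4B(+/+), 0 of the 6 genes over the floor were higher, beside 0.383% of all genes, and 2, Cxcl5 and Ltf, were lower, beside 0.93%; the median log2 difference was 0.03 for the 6 genes and 0.01 for all genes. In 4D(-/-) over 4D(+/+), 1, Lcn2, was higher, beside 1.1%, and 4, Cxcl5, Ltf, S100a8 and S100a9, were lower, beside 4.53%; the median was -1.03 against 0 for all genes. In 4B(+/+) over C57, 4 were higher, beside 2.23%, and 0 lower, beside 1.33%, with a median of 0.59. In 4D(+/+) over C57 the same 4, Cxcl5, Ltf, S100a8 and S100a9, were higher, beside 4.25%, and Lcn2 alone was lower, beside 1.24%, with a median of 0.93. In 4B(-/-) over C57, 3, Cxcl5, S100a8 and S100a9, were higher, beside 2.53%, and 0 lower, beside 3.57%. In 4D(-/-) over C57, 1 was higher, beside 1.37%, and 0 lower, beside 0.791%, and that 1 was Cxcl5 with both values under the floor. Each wild-type line serves both as the base of its knockout comparison and as the array compared with C57, and the 4 comparisons with C57 share its array, so these counts are not independent of each other. S100a8 and S100a9 lay just past the threshold in 4B(+/+) over C57, each with a log2 difference of 0.59.

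Fewer genes passed 2-fold. In 4B(-/-) over 4B(+/+) 0 were higher, beside 0.104% of all genes, and 1, Cxcl5, was lower, beside 0.304%. In 4D(-/-) over 4D(+/+) 0 were higher, beside 0.209%, and the 4 genes named above were lower, beside 1.51%. Cxcl5 and Ltf made up the 2 that were higher in 4B(+/+) than C57, beside 0.835%, and the 2 in 4D(+/+), beside 1.83%. In those comparisons 0 were lower, beside 0.209% in 4B(+/+) and 0.183% in 4D(+/+). Cxcl5 alone was higher in 4B(-/-) than C57, beside 0.687%, and in 4D(-/-), beside 0.339%, there with both values under the floor, and 0 were lower, beside 0.652% in 4B(-/-) and 0.2% in 4D(-/-).

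Other genes of the neutrophil programme, in 5 lists of 72 genes put together by function with earlier results of these data known, were counted in the same way. Of these 63 were measured and 39 were over the floor. Of the 39, 1 was past 1.5-fold higher in 4B(-/-) than in 4B(+/+), beside 0.383% of all genes, and 1 was lower, beside 0.93%, and the median log2 difference was -0.01. In 4D(-/-) over 4D(+/+), 3 were higher, beside 1.1%, and 2 lower, beside 4.53%, with a median of 0.07. Against C57 the counts depended on values under the floor. In 4B(+/+) over C57, 5 were higher, beside 2.23%, and 0 lower, beside 1.33%, but with values under the floor set at 64, an alternative chosen after seeing the data, 3 remained, Pglyrp1, Clec4d and Cd14. The 2 lost were Il1r2, with both values under the floor, and Clec4e. In 4D(+/+) over C57, 2 were higher, beside 4.25%, and 1 lower, beside 1.24%, with the floor set or not. In 4B(-/-) over C57, 5 were higher, beside 2.53%, and 1 lower, beside 3.57%, against 3 and 1 with the floor set. In 4D(-/-) over C57, 1 was higher, beside 1.37%, and 1 lower, beside 0.791%, against 0 and 1 with the floor set.

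Of 8 measured genes of primary granules and precursors only Chil1, a chitinase-like protein also made by lung epithelium and macrophages, passed the floor. Its array values ranged from 2249 in 4D(+/+) to 2827 in 4D(-/-). The enzymes that define the primary granule were near background, with myeloperoxidase (Mpo) between 11.4 and 15.2 and neutrophil elastase (Elane) between 12.9 and 16.1.

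Of 22 measured genes of later granules and mature cells 15 passed the floor. Pglyrp1, a peptidoglycan-binding protein of specific granules, read 134 in 4B(-/-), 209 in 4B(+/+), 132 in 4D(-/-), 295 in 4D(+/+) and 108 in C57. It was 1.55-fold lower in 4B(-/-) than in 4B(+/+) and 2.23-fold lower in 4D(-/-) than in 4D(+/+), and its order of arrays was that of Ltf. G0s2, an inhibitor of lipolysis that is also abundant in fat, was 1.83-fold lower in 4D(-/-) than in 4D(+/+), at 549 and 1003. The lectin receptor genes Clec4d and Clec4e, also found on monocytes and macrophages, differed between 4B(+/+) and C57, at 96.8 against 56.99 for Clec4d and 81.9 against 35.2 for Clec4e, with both C57 values under the floor. The gelatinase gene Mmp9, a tertiary granule enzyme, was between 142 and 156 in all 5 arrays.

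Among 11 receptors and adhesion molecules over the floor, the formyl peptide receptor Fpr2 was 1.58-fold and the integrin chain Itgb2 1.61-fold higher in 4D(-/-) than in 4D(+/+). Itgb2 read 632 in 4B(-/-), 838 in 4B(+/+), 843 in 4D(-/-), 523 in 4D(+/+) and 721 in C57. Of 5 NADPH oxidase genes, the membrane subunit Cybb was 1.59-fold higher in 4D(-/-), at 963 against 607 in 4D(+/+). Macrophages also use these leukocyte genes. They were named for their differences, so their low values in 4D(+/+) restate that choice. In the same comparison 9 of the 11 receptor genes and 4 of the 5 oxidase genes stayed within 1.5-fold. The others were higher, beside 1.1% of all genes, and 0 were lower, near the share of 4.53%. Of 7 chemokine and growth factor genes over the floor 0 passed 1.5-fold in any of the 6 comparisons. Between 0.383% and 4.53% of all genes passed in a given comparison and direction, so 0 of 7 is near that share. Cxcl1, another ligand of CXCR2, read 121 in 4B(-/-), 113 in 4B(+/+), 96.4 in 4D(-/-), 104 in 4D(+/+) and 88.2 in C57, a far narrower range than that of Cxcl5. Cxcl2, Cxcl3, Csf3, Il17a, Il6 and Tnf, the neutrophil-attracting and inflammatory signals of acute injury, were under the floor in every array.

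**Figure D4:**
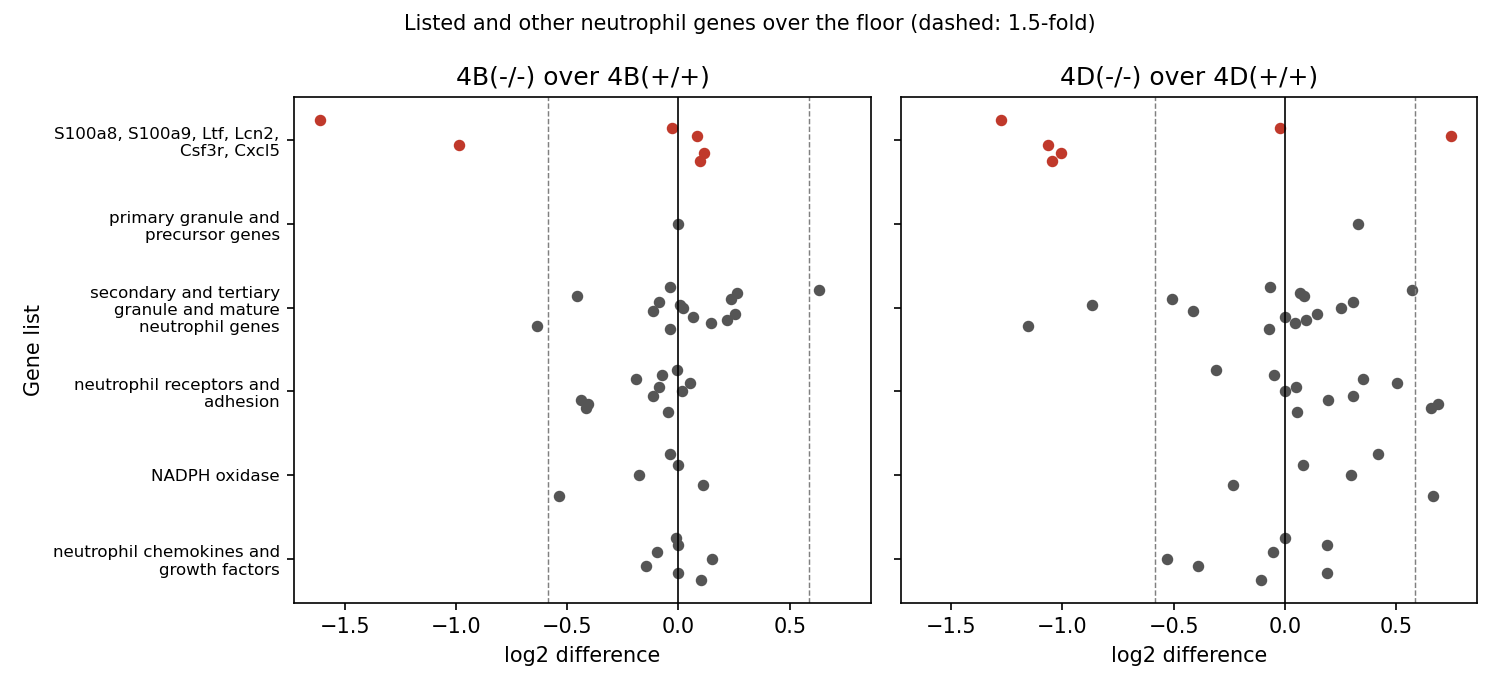
log2 difference for the 6 listed genes over the floor (red) and for 5 lists of other neutrophil genes over the floor (grey), in 4B(-/-) over 4B(+/+) (left) and 4D(-/-) over 4D(+/+) (right), 1 point per gene, with dashed lines at 1.5-fold. The grey points cluster around 0, with 1 higher and 1 lower on the left and 3 higher and 2 lower on the right.

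Markers of other cells and tissues moved with some of these genes, and their part in the results was not tested. All 4 measured fat genes were past 1.5-fold higher than C57 in both wild-type lines. The share of all genes was 2.23% in 4B(+/+) and 4.25% in 4D(+/+). All 4 were lower in 4D(-/-) than in 4D(+/+), beside 4.53% of all genes. In 4B(-/-) over 4B(+/+) 2 of 4, Ucp1 and Cidea, were lower, beside 0.93%. The list median there was -0.66, where S100a8 and S100a9 differed by 0.10 and 0.11 on the log2 scale. The fat genes' summed intensity was 6913 in 4B(-/-), 8984 in 4B(+/+), 3017 in 4D(-/-), 11246 in 4D(+/+) and 3662 in C57, low in the same 2 arrays as S100a8. Adipoq, the fat hormone adiponectin, read 1689 in 4B(-/-), 1952 in 4B(+/+), 468 in 4D(-/-), 2065 in 4D(+/+) and 615 in C57.

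Squamous epithelium, which can make S100A8 and S100A9, had 5 of 8 measured marker genes over the floor. Of these 4 were higher in 4D(+/+) than in C57, beside 4.25% of all genes, or 3 with values under the floor set at 64. In 4D(-/-) over 4D(+/+) 3 were lower, beside 4.53%, or 2 with the floor set. Krt4 and Trp63 were higher in 4B(+/+) than in C57, beside 2.23%, and Krt4 also in 4B(-/-), beside 2.53%. With the floor set only Krt4 in 4B(+/+) stayed past 1.5-fold. Krt4 read 94.5 in 4B(-/-), 117 in 4B(+/+), 287 in 4D(-/-), 466 in 4D(+/+) and 42.9 in C57. The 8 genes summed to 393 in 4B(-/-), 445 in 4B(+/+), 648 in 4D(-/-), 1005 in 4D(+/+) and 285 in C57.

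Secretory epithelium, the other source of Ltf and Lcn2, had all 11 marker genes over the floor, Ltf and Lcn2 among them. Without Ltf and Lcn2 the other 9 summed to 98418 in 4B(-/-), 105869 in 4B(+/+), 96250 in 4D(-/-), 108211 in 4D(+/+) and 94452 in C57. Both wild-type lines were at the top. Such a sum is weighted toward the brightest genes, and the part of secretory epithelium in the Ltf values was not tested. In 4B(-/-) over 4B(+/+) 2 of the 11 were lower, Ltf and Dmbt1, beside 0.93% of all genes. There 0 were higher, beside 0.383%, and the median was -0.10. In 4D(-/-) over 4D(+/+) 3 were lower, Ltf, Dmbt1 and Scgb3a1, beside 4.53%. There 1 was higher, Lcn2, beside 1.1%, and the median was -0.15. Dmbt1, a gland gene of this list, read 78.4 in 4B(-/-), 1890 in 4B(+/+), 1544 in 4D(-/-), 2967 in 4D(+/+) and 1172 in C57. All 8 skeletal muscle genes were lower in both knockouts than in their own wild types. All 8 were also higher in both wild-type lines than in C57. With values under the floor set at 64, 7 of 8 passed in the PDE4B lines. Of all genes 0.93% were lower in 4B(-/-) and 4.53% in 4D(-/-), and 2.23% were higher in 4B(+/+) and 4.25% in 4D(+/+). Ltf took the same direction in those 4 comparisons. The muscle genes' sum was 2892 in 4B(-/-), 6472 in 4B(+/+), 6246 in 4D(-/-), 28816 in 4D(+/+) and 3076 in C57.

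Other leukocytes and the lung's own cells were counted too. Of 8 alveolar macrophage genes 3, Marco, Chil3 and Fabp1, were higher in 4D(-/-) than in 4D(+/+), beside 1.1% of all genes. In that comparison 0 were lower, beside 4.53%, and the list median was 0.37, opposite to S100a8. The largest log2 difference of Marco in the knockout and wild-type-line comparisons was 1.41, against 1.05 for S100a8. None of the 8 passed 1.5-fold in 4B(-/-) over 4B(+/+), beside 0.383% higher and 0.93% lower. The 7 monocyte, 5 endothelial adhesion, 7 alveolar type 2 and 8 alveolar type 1 and endothelial genes over the floor had 0 past 1.5-fold in either knockout comparison. For lists this short 0 is near the share of all genes. That share was 0.383% higher and 0.93% lower in the PDE4B lines, and 1.1% and 4.53% in the PDE4D lines. Of 8 measured eosinophil and mast cell genes only Cpa3, a mast cell protease, passed the floor, at 68.6 in 4B(+/+).

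Blood and RNA quality were looked at in the same way. Both red-cell genes over the floor, Hbb-b2 and Alas2, were higher in 4D(-/-) than in 4D(+/+), beside 1.1% of all genes. Hbb-b2 read 100.3 against 47.8, the direction opposite to S100a8. Platelet genes, a further source of CXC chemokines, had 3 of 5 measured members over the floor. Of these 0 passed 1.5-fold in any of the 6 comparisons, near the share of all genes, 0.383% to 4.53% by comparison and direction. The 3′ to 5′ ratio of the Gapdh control was 1.57 in 4B(-/-), 1.37 in 4B(+/+), 1.77 in 4D(-/-), 1.31 in 4D(+/+) and 1.72 in C57. It was low in both wild-type lines, the arrays with the most Ltf, and high in 4D(-/-) and C57, the arrays with the least S100a8 and S100a9. The actin ratio did not separate the arrays in this way, at 1.79 in 4B(-/-), 1.62 in 4B(+/+), 1.86 in 4D(-/-), 1.83 in 4D(+/+) and 1.88 in C57. The part of RNA quality in these results was not tested.

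The genes nearest in profile to Cxcl5 were Cnmd (0.90 on the log2 scale), Col10a1 (0.91), Cytl1 (0.972) and Comp (0.996), all known from cartilage, and Retn (1.05), the resistin gene of fat. Cnmd read 192 in 4B(-/-), 261 in 4B(+/+), 138 in 4D(-/-), 111 in 4D(+/+) and 36.1 in C57. These distances rest on Cxcl5 values under the floor in 4D(-/-) and C57. With values under the floor set at 64, 6 cartilage and bone genes were compared with C57. Past 1.5-fold higher were 4 in 4B(-/-), 6 in 4B(+/+), 5 in 4D(-/-) and 4 in 4D(+/+). With the same setting the share of all genes was 2.08%, 1.85%, 1.13% and 3.71%, in that order. The part of such tissue in the Cxcl5 values was not tested.

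Clock genes set C57 apart from the 4 lines, and Cxcl5 was higher than C57 in the 3 lines in which it was over the floor. Of 13 clock genes over the floor, 2, Arntl and Npas2, were higher than C57 in all 4 lines, or 1, Arntl, with values under the floor set at 64, and between 8 and 10 were lower. Of all genes, by line, between 1.37% and 4.25% were higher than C57 and between 0.791% and 3.57% lower. Dbp, a clock output gene, read 146 in 4B(-/-), 176 in 4B(+/+), 247 in 4D(-/-), 233 in 4D(+/+) and 2475 in C57. Within the 4 lines 0 of the 13 clock genes passed 1.5-fold between a knockout and its own wild type. For a list this short 0 is near the share of all genes. That share was 0.383% higher and 0.93% lower in the PDE4B lines, and 1.1% and 4.53% in the PDE4D lines. The labels do not state the hour at which lungs were taken, and the part of the clock in the Cxcl5 values was not tested.

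**Figure D5:**
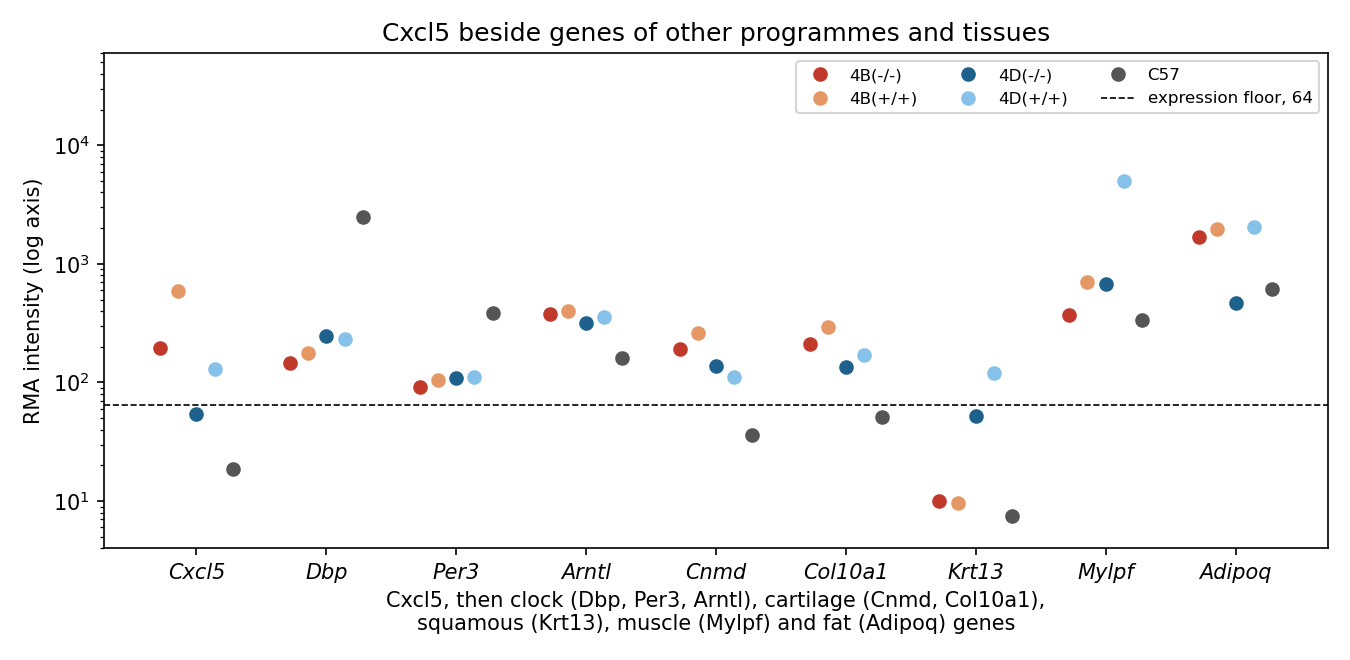
RMA intensity on a log axis for Cxcl5 and for clock (Dbp, Per3, Arntl), cartilage (Cnmd, Col10a1), squamous (Krt13), skeletal muscle (Mylpf) and fat (Adipoq) genes, 1 point per array, with the floor of 64 dashed. C57 is apart from the other 4 arrays for Dbp, at 2475, and is under the floor for Cxcl5 together with 4D(-/-).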

How the data were processed

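Each array holds pooled lung RNA of 1 strain. Per the labels' protocols, RNA was taken from powdered frozen lungs, 5 for each strain, of which 3 were mixed, and 0.3 µg of it was labelled with biotin. The deposited values are intensities on a linear scale, 1 per probe set and array, made with RMA per the submitters' processing notes. RMA summarises probes and equalises array distributions; the RMA version is not known.

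Intensities were converted to log2. Symbols came from the platform annotation, in which 34958 probe sets had 1, 932 had several and 9211 had none. A gene's probe set of highest mean was used, with a floor of log2 6, and differences of at least 1.5-fold were counted over 11500 genes. With 1 array per strain nothing was tested, and precision is limited by how few arrays there are. Counts used the values as measured. Folds printed for Cxcl5 against a value under the floor were taken against 64 and are lower bounds, and counts with all such values set at 64 were added after seeing the data. Named genes were all listed members, the up to 4 genes of each other list with the largest difference, and the 5 genes of nearest profile to S100a8 and to Cxcl5; genes named beyond these were chosen after their values were seen. The members and lists were chosen with earlier results of these data known. The lists of clock, skeletal muscle and adipose genes were added with the data in view. Counting was tested on simulated data. Alternatives were a 2-fold threshold, other floors, the median of probe sets, cyclic loess (limma 3.58.1), 3 centrings and other references. Promoter stretches came from RefSeq (GRCm38.p6). Scripts ran in Python 3.11.15.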

Additional observations from a re-analysis of the deposited data

How the results depend on the processing

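No paired analysis was possible because each strain has 1 array. Floors of log2 5 and log2 7, no floor, the median of probe sets, cyclic loess and centring on the median of genes over the floor left every count of members past 1.5-fold within 1.5 times its value. At a 2-fold threshold 1 gene was lower in 4B(-/-) and 0 higher in 4D(-/-) than in the own wild type, 2 were higher and none lower in each wild-type line than in C57, and 1 was higher in 4B(-/-) than in C57. With each array centred on its median 2 genes in place of 4 were higher in 4B(+/+) than in C57. Centring on alveolar and endothelial genes, chosen after seeing the data, moved the median of all genes by -0.21 in 4D(-/-) over 4D(+/+), 0.13 in 4B(+/+) over C57 and 0.23 in 4D(+/+) over C57. The Lcn2 calls were then lost, leaving 0 higher in 4D(-/-) than in 4D(+/+) and 0 lower in 4D(+/+) than in C57; all genes split into 0.339% higher and 10.5% lower in 4D(-/-) over 4D(+/+), against 1.1% and 4.53%.

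The reference array mattered most. For 4B(-/-), 1 gene was higher and 1 lower against the averaged 3 wild-type arrays, 1 higher and 0 lower against the mean of C57 and 4D(+/+), and 3 higher and 0 lower against C57, which was added after seeing the data. On the log2 scale Cxcl5 stood at -1.61 against its own wild type and at 0.78, 1.98 and 3.38 against these, in that order, and Ltf at -0.99 against its own wild type and 0.24 against C57. Each of these references holds C57, where Cxcl5 is under the floor; with such values set at log2 6, also added after seeing the data, Cxcl5 stood at 0.19, 1.09 and 1.60, the first no longer past 1.5-fold, so 0 genes were then higher against the 3 wild-type arrays, and in 4D(-/-) over C57 0 genes were higher. For 4D(-/-), 0 genes were higher against either mean, 1 was lower against the mean of C57 and 4B(+/+), and 0 were lower against C57, where Cxcl5 read 1.53, with both values under the floor, and Ltf 0.19. S100a8 and S100a9 in 4D(-/-) stood at -0.64 and -0.57 against the averaged 3 wild-type arrays, the second short of 1.5-fold. They stood at -0.44 and -0.35 against the mean of C57 and 4B(+/+), and at -0.15 and -0.05 against C57. Neither gene was past 1.5-fold against these references, which leave out 4D(+/+). Values under an intensity of 64 limit what can be said of Ngp, Camp, Cxcr2 and Cxcl5 in C57 and 4D(-/-).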
